A study of Homo sapiens with 24 samples.

Results

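The regions described here lost accessibility in OCI-LY3 cells after 8 h of AZD4573 and were in none of the 4 lists of changed regions of VAL cells. They were selected by coordinates from the lists of differential regions: of 3463 regions called decreased in OCI-LY3 at 8 h against 0 h, 2204 (63.6%) had no identical entry among the VAL regions called increased or decreased at 3 h or 8 h. The 8 lists together held 26369 distinct regions, of which 13.1% were called decreased in OCI-LY3 at 8 h. Of the selected regions, 292 lay at promoters, within 1000 bp of an annotated transcription start site (TSS), and 1912 were distal.

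OCI-LY3 and VAL are established cell lines of diffuse large B-cell lymphoma (DLBCL). The design text of the series names OCI-LY3 as a germinal centre type and VAL as an activated B cell (ABC) type line, whereas OCI-LY3 is generally classed as ABC and VAL as germinal centre B-like. Both lines received AZD4573, an inhibitor of cyclin-dependent kinase 9 (CDK9), at 30 nM for 3 h or 8 h, the 0 h libraries were without the drug and are called DMSO in the names of the lists, and each condition had 4 ATAC-seq libraries, 2 made by the standard method from 50000 cells and 2 by Fast-ATAC from 5000 cells. The treatments are labelled as duplicates, so libraries of both methods may come from the same cultures, and each line is a single model of its subtype. The methods text describes Fast-ATAC only, with the larger input. The lists give coordinates and no value per region or library, so depth is unknown, and neither a spread between libraries nor the values of regions just inside and just outside the threshold can be given from them. Absence from a VAL list means that no change was called there. It does not show that accessibility in VAL stayed the same, or that the region was open in VAL.

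ATAC-seq inserts adapters with a transposase where DNA is not covered by nucleosomes, so its peaks mark active promoters, enhancers and insulator sites. CDK9, the kinase of P-TEFb, releases RNA polymerase II paused near promoters, and its inhibition lowers short-lived transcripts first. In mature B cells, interferon regulatory factors (IRFs) bind pairs of GAAA half-sites, alone or beside the ETS factors SPI1 and SPIB or the AP-1 factors BATF and JUN. ABC-type DLBCL is known for high IRF4, BATF and NF-kB activity. CTCF marks insulators, and E2A and EBF1 are factors of B cell identity.

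Sequences of hg19 (plus strand, 100 bases each) show examples of the matches that were counted. The motif IRF dimer is written GAAANNGAAA and AP-1 is TGANTCA, both searched on either strand, and capitals mark IRF dimer matches in the BCL11A, IFNB1, AIM2, PDE4B and CELF2 regions and AP-1 matches in the others. A match describes the letters only and is not evidence of binding. The first 4, from 10 that met this rule, lie in distal regions whose nearest protein-coding TSS belongs to a gene of the immune lists used below, and the next 4 were picked after the values were seen, for an IRF match near a gene of immune interest or, at PDE4B and CELF2, for the most frequent form of the match, GAAAGTGAAA or its reverse complement.
BCL11A region, chr2:60641034-60641133: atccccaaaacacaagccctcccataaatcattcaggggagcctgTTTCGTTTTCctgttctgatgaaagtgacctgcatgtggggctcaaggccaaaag
BACH2 region, chr6:91078850-91078949: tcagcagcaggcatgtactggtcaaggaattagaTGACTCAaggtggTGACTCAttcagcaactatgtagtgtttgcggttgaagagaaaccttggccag
FOXP1 region, chr3:71691003-71691102: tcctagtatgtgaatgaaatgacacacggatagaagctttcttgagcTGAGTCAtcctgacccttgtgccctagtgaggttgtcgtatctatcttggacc
SYK region, chr9:93623263-93623362: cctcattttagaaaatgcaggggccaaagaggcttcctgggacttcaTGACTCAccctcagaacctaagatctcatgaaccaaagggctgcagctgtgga
IFNB1 region, chr9:21096485-21096584: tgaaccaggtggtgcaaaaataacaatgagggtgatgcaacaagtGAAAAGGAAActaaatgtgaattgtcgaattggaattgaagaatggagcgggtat
AIM2 region, chr1:159025905-159026004: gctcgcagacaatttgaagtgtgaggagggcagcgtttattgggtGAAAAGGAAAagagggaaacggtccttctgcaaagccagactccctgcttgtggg
PDE4B region, chr1:66767007-66767106: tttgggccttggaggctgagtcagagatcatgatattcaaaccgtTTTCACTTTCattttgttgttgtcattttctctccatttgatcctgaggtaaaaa
CELF2 region, chr10:11251583-11251682: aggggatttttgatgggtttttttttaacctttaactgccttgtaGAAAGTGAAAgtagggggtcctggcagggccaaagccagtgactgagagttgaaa

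The BCL11A and BACH2 regions were intergenic. BCL11A encodes a zinc finger repressor of lymphoid cells, and BACH2 encodes a repressor that binds AP-1-like sites and holds back plasma cell differentiation. The BACH2 region held 2 AP-1 matches, and the nearest BACH2 TSS was 71874 bp away. The FOXP1 and SYK regions were intronic, and FOXP1, a forkhead factor of B cells, was already closed at 3 h at this site. SYK is the tyrosine kinase that transmits B cell receptor signals. The IFNB1 region lay 18284 bp from the TSS of the interferon beta gene and only 630 bp from a region of a VAL list, whereas the AIM2 region, 19535 bp from the TSS of the gene of a cytosolic DNA sensor, was 116488 bp from the nearest VAL-listed region and was closed at 3 h as well. The PDE4B region, in an intron of the gene of a cAMP phosphodiesterase and 29742 bp from its TSS, was closed at 3 h. The CELF2 region, in an intron 43617 bp from the TSS of an RNA-binding protein gene, was not.

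The remaining 1259 regions closed in OCI-LY3 at 8 h were listed in VAL. Of these, 1095 were also closed in VAL at 8 h, a further 89 were closed in VAL at 3 h and not at 8 h, and 75 were opened in VAL at 3 h or 8 h. No region was opened at one time and closed at the other in VAL. The OCI-LY3-only regions are compared below with 3 sets: the 1095 regions closed in both lines at 8 h, the 1951 regions opened in OCI-LY3 at 8 h and in no VAL list, and the 7931 regions closed in VAL at 8 h and in no OCI-LY3 list. These sets share the 0 h libraries of their line, and their sizes were fixed by the same calls that chose the members.

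**Figure D1:**
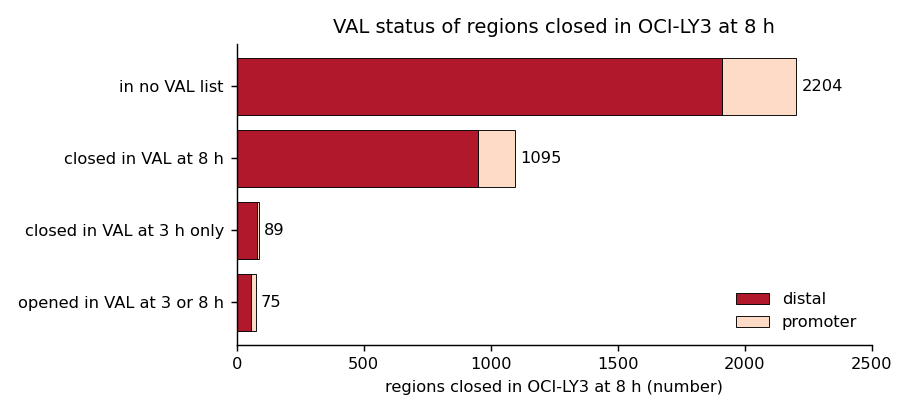
Number of regions closed in OCI-LY3 at 8 h (horizontal axis) by their status in VAL (rows), with distal regions in red and promoter regions in pale orange. The top bar holds the 2204 regions in no VAL list, of which 292 were at promoters, and the next bar the 1095 regions closed in both lines.

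Although the members had no identical VAL region, 34 lay within 1000 bp of a VAL-listed region and 311 (14.1%) within 10000 bp. A VAL-closed region of either time stood within 10000 bp of 233 members and a VAL-opened one of 83. The VAL lists held 1786 closed and 3545 opened regions at 3 h, and 9260 and 11121 at 8 h. Such neighbours were not counted for the other sets. Within 50000 bp, 1094 members (49.6%) had a VAL-listed neighbour. Of the 2204 members, 402 (18.2%) were already called closed in OCI-LY3 at 3 h, against 304 of 1095 (27.8%) of the regions closed in both lines. These shares come from comparisons with the same 0 h libraries and are given without a test. At 3 h, 65 of the 292 promoter members (22.3%) and 337 of the 1912 distal members (17.6%) were called closed.

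Members were narrower than the regions they are set beside. Their median width was 1144 bp (quartiles 823 bp and 1423 bp), against 1369 bp for regions closed in both lines, 1314 bp for those opened in OCI-LY3 and 1348 bp for those closed in VAL only. All 2204 together covered 2575617 bp. By the position of the midpoint in protein-coding genes, 56.2% of distal members were intergenic, 40.2% intronic and 3.61% exonic. Distal regions opened in OCI-LY3 were 58.2% intronic and 38.02% intergenic. The median distance from a distal member to the nearest TSS was 20347 bp, and to the nearest protein-coding TSS 64210 bp.

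The 292 promoter members made up 13.2% of the set (95% Wilson interval 11.9% to 14.7%). This share was lower than the 23.01% (449 of 1951, interval 21.2% to 24.9%) among regions opened in OCI-LY3, with an odds ratio of 0.51 (95% interval 0.43 to 0.60) and an adjusted p of 7.2e-16 (two-sided Fisher's exact test over regions, Benjamini-Hochberg over 3 comparisons). The direction was the same on 16 of 22 autosomes. Against regions closed in both lines (13.1%) the odds ratio was 1.01 (0.82 to 1.26, adjusted p = 0.94), and against those closed in VAL only (13.2%) it was 1.00 (0.87 to 1.15, adjusted p = 0.94). Among all 26369 listed regions, 29.1% were at promoters. Regions are not biological replicates, so these p-values measure the spread over regions and not between cultures.

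Promoter members were of a mixed kind. A protein-coding TSS lay within 1000 bp of 165 of them, a TSS of a long non-coding RNA and of no protein-coding gene in 78, and TSSs of other gene types alone in 49. A TSS lay inside the region in 226. The GC content of the central 200 bp had a median of 59.5% (quartiles 46.5% and 71.1%). It was 60% or more in 145 regions and under 45% in 62. The median was 59.5% in promoter regions opened in OCI-LY3 as well, 48.5% in those closed in both lines, 51.0% in those closed in VAL only and 66.5% in all listed promoter regions.

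The protein-coding promoters named here were picked after the values were seen, most of them as genes with a known role in B cells, interferon responses or inflammation and others for a motif match, and no group was tested. SDC1 encodes syndecan-1 (CD138), the surface proteoglycan of plasma cells. Its promoter region, chr2:20423236-20425797, was 2562 bp wide with a central GC content of 76.5%. ELL2, a subunit of the super elongation complex that acts with P-TEFb and serves immunoglobulin secretion, had its promoter region at chr5:95296300-95298349. PRDM1, the regulator of plasma cell fate, had a member at chr6:106439810-106441465, whose midpoint lay at -93574 bp from the canonical TSS, at an annotated alternative start. IFIT1, MOV10, RTP4 and IFI44 are interferon-stimulated genes. Their promoter members lay at chr10:91151742-91153261, chr1:113216348-113218316, chr3:187085167-187086937 and chr1:79114919-79117280, and those of IFIT1, MOV10 and RTP4 were closed at 3 h too. The RTP4 region held an IRF dimer match in its central 200 bp, and so did that of NCOA7, an oxidation resistance gene, at chr6:126239564-126240982. IFIT1, MOV10 and IFI44 had no match there to any of the 19 motifs. CASP1, the inflammatory caspase, had a promoter member as well. ADA2, which encodes a secreted adenosine deaminase, had members at 2 separate promoters, chr22:17699498-17701110 and chr22:17738227-17739875, the first with an ETS-IRF composite match (GGAANNGAAA) and the second with an AP-1 match.

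Across all promoter members, IRF dimer matches stood in 13 of 292 (4.45%, interval 2.62% to 7.47%) and AP-1 matches in 15 (5.14%, 3.14% to 8.30%). Among all 7686 listed promoter regions the shares were 1.68% and 2.89%. In promoter regions opened in OCI-LY3 they were 2.23% (1.21% to 4.05%) and 2.9% (1.7% to 4.89%), and these intervals overlap those of the members. Promoter motif shares were not tested.

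The distal members were tested for 19 motifs in the central 200 bp, against each of the 3 sets (57 two-sided Fisher's exact tests, adjusted together). The IRF dimer and AP-1 motifs were more frequent in members than in regions opened in OCI-LY3 and than in regions closed in VAL only. For neither motif did the comparison with regions closed in both lines pass. IRF dimer matches were found in 175 of 1912 distal members (9.15%, interval 7.94% to 10.53%). The share was 2.40% in regions opened in OCI-LY3 (odds ratio 4.06, 2.82 to 5.84, adjusted p = 9.4e-16) and 4.87% in regions closed in VAL only (odds ratio 1.97, 1.63 to 2.38, adjusted p = 2.8e-10). The direction held on 17 and 16 of 22 autosomes. In regions closed in both lines the share was 10.1% (odds ratio 0.90, 0.69 to 1.16, adjusted p = 0.63). With whole regions searched, the odds ratio fell to 2.09 against regions opened in OCI-LY3 and to 1.22 against those closed in VAL only, both still past the threshold. Windows 2000 bp to either side of the members held the motif in 3.87%, and all listed distal regions in 4.57%.

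AP-1 matches were found in 210 distal members (10.98%, interval 9.66% to 12.5%). The share was 6.06% in regions opened in OCI-LY3 (odds ratio 1.91, 1.48 to 2.46, adjusted p = 3.7e-06) and 7.22% in regions closed in VAL only (odds ratio 1.59, 1.34 to 1.88, adjusted p = 2.9e-06). Regions closed in both lines had 9.87% (odds ratio 1.12, 0.87 to 1.45, adjusted p = 0.62), and the flanking windows 6.20%. AP-1 lost the call against regions closed in VAL only when whole regions were searched (odds ratio 1.05, adjusted p = 0.52). Both motifs stood in 21 distal members, and 364 (19.04%) held either. Of the distal members with AP-1, 10% held the IRF dimer, beside 9.15% of all distal members. In the 337 distal members also closed at 3 h, the IRF dimer stood in 8.90% and AP-1 in 9.20%. In those called at 8 h alone the shares were 9.21% and 11.4%.

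**Figure D2:**
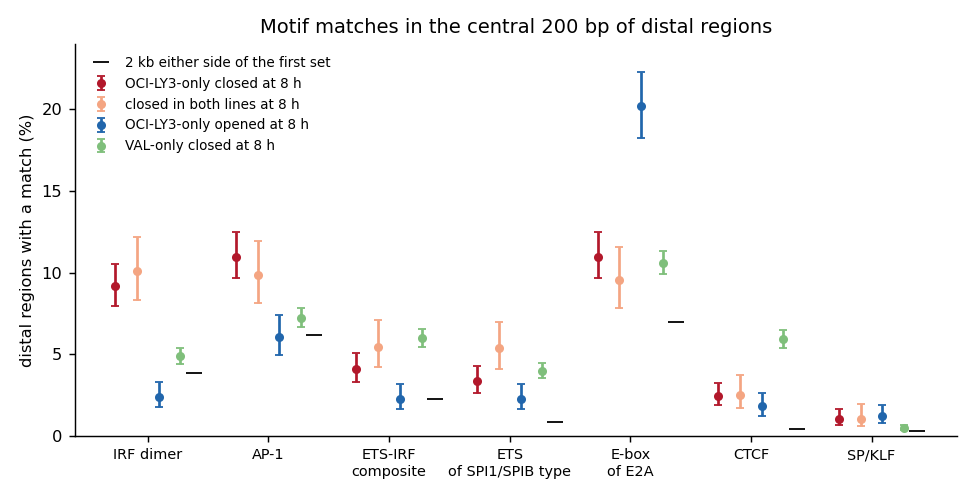
Share of distal regions with a motif match in the central 200 bp (vertical axis, percent, points with 95% Wilson intervals) for 7 motifs and 4 sets, and in windows 2000 bp either side of the OCI-LY3-only closed regions (black dashes). The IRF dimer stands at 9.15% in OCI-LY3-only closed regions and 2.40% in OCI-LY3-only opened ones, and the E-box of E2A in the reverse order, at 10.98% and 20.2%.

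The letters between the GAAA half-sites were not evenly spread. Of the IRF matches, GAAAGTGAAA was the most frequent. It stood in 51 distal members (2.67%) and in 4 of 3824 flanking windows (0.105%). Regions closed in both lines had it in 2.52%, regions closed in VAL only in 0.494% and regions opened in OCI-LY3 in 0.133%. By contrast, the A-rich form GAAAAAGAAA stood in 1.15% of members and 0.915% of flanking windows. The pair of half-sites with CT between them, GAAACTGAAA, stood in 1.20% and 0.209%. For AP-1, TGACTCA stood in 7.22% of members and 3.03% of flanking windows, and TGAATCA in 4.18% and 3.24%. These letters were looked at after the motif shares were known and were not tested.

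Matches gathered at the middle of the regions. In bins of 100 bp, the IRF dimer was found in 5.07% of distal members just left of the midpoint and 4.55% just right of it, and in 1.78% and 2.04% of the outermost bins 1000 bp away. AP-1 rose to 6.28% in the bin right of the midpoint from 3.24% and 2.62% in the outermost bins.

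**Figure D3:**
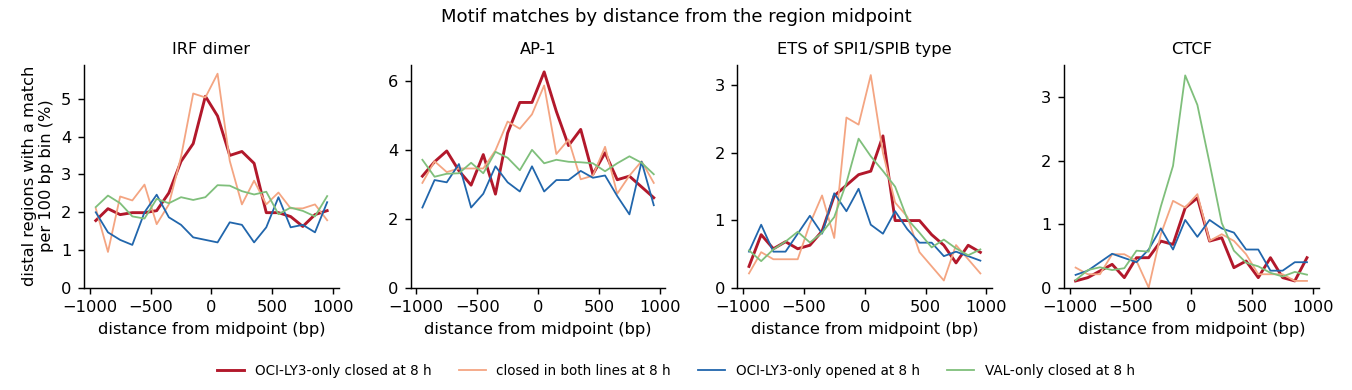
Share of distal regions with a match in each 100 bp bin (vertical axis, percent) by distance from the region midpoint (horizontal axis, bp), for 4 motifs and 4 sets. In OCI-LY3-only closed regions (thick red) the IRF dimer peaks at 5.07% and AP-1 at 6.28% beside the midpoint, and CTCF at 1.41%.

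Each of the other motifs that passed did so against some of the sets only. Against regions closed in VAL only, CTCF was less frequent in members and SP/KLF more frequent. The E-box and EBF were less frequent in members than in regions opened in OCI-LY3, and the ETS-IRF composite differed in direction between sets. The CTCF core CCANNAGNNGGC was found in 47 distal members (2.46%, 1.85% to 3.25%) and in 5.91% of regions closed in VAL only (odds ratio 0.40, 0.30 to 0.55, adjusted p = 1.3e-09), with the lower share in members on 19 of 22 autosomes. Regions closed in both lines held it in 2.52%, regions opened in OCI-LY3 in 1.80% and the windows flanking the members in 0.418%. The E-box of E2A, CAGCTG, stood in 10.98% of members and 20.2% of regions opened in OCI-LY3 (odds ratio 0.49, 0.40 to 0.59, adjusted p = 3.2e-12). Regions closed in both lines had it in 9.56% and those closed in VAL only in 10.6%. The EBF motif TCCCNNGGGA was rare in members and in regions opened in OCI-LY3, at 0.418% and 1.33% (odds ratio 0.32, adjusted p = 0.024). The ETS-IRF composite lay between the sets: its 4.08% in members was above the 2.26% of regions opened in OCI-LY3 (odds ratio 1.82, adjusted p = 0.024) and below the 5.97% of regions closed in VAL only (odds ratio 0.67, adjusted p = 0.010). The SPI1/SPIB-type ETS motif GAGGAAGT was in 3.35% of members and 5.36% of regions closed in both lines (odds ratio 0.61, 0.42 to 0.89, adjusted p = 0.059). SP/KLF, the GC-box GGGGCGGG, stood in 1.05% of members and 0.479% of regions closed in VAL only (odds ratio 2.21, adjusted p = 0.041). Regions opened in OCI-LY3 had it in 1.2%. SP/KLF lost its call in 4 of 6 alternatives, with odds ratios of 2.54 in 100 bp windows, 2.14 with 1 region per locus, 2.08 in members beyond 10000 bp from VAL regions and 1.46 with GC strata. With GC strata the odds ratio was 0.41 for EBF (adjusted p = 0.14), 1.73 for the ETS-IRF composite against regions opened in OCI-LY3 (adjusted p = 0.077) and 0.73 against those closed in VAL only (adjusted p = 0.077), so these calls were lost while the ratios kept their direction. Windows of 100 bp also lost the calls of EBF (odds ratio 0.56) and of the composite (1.83) against regions opened in OCI-LY3. The other 12 motifs did not pass in any of the 3 comparisons with these windows. These were the promoter-type ETS motif (CCGGAAGT), the SPI1/SPIB type given above, the AP-1-IRF composite (GAAATGANTCA) and its spaced form (TTTCNNNNTGANTCA), both of which contain the AP-1 letters, CRE (TGACGTCA), NF-kB (GGGANTTNCC), OCT (ATTTGCAT), RUNX (TGTGGTT), STAT (TTCCNGGAA), BCL6 (TTCCTNGAA), which can overlap STAT, NRF1 (GCGCATGC) and YY1 (AAGATGGC). None of the 19 motifs was found in 1057 distal members (55.3%).

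Some members had sequence relatives within the set. Central windows of 400 bp were aligned to each other, and 564 members (25.6%) matched another over at least 100 bp. The largest group held 377 members, joined by direct matches or through other members, and its best-linked window has the sequence of the primate Alu element. That window was linked directly to 209 members. The second group, of 60 members on 15 chromosomes, had a median of 3 CCAAT boxes, the pentamer bound by NF-Y, in the 400 bp window, and 40 of the 60 held the heptamer CCAATCA. No repeat annotation was used to check the Alu name. Within the group, the best-linked window aligned to others at a median identity of 81.2% (range 67.8% to 94.3%). Only 3 of the 60 were at promoters, 5 were closed at 3 h, and 52 were farther than 10000 bp from any VAL-listed region. None held an IRF dimer match in the central 200 bp and 1 held an AP-1 match. The window with most links was then searched against all 26369 listed regions. It found 67, of which 38 were members (1.72% of 2204, interval 1.26% to 2.36%). It found 5 among regions closed in both lines (0.457%, 0.195% to 1.06%) and 17 among regions closed in VAL only (0.214%, 0.134% to 0.343%). Among the 1951 regions opened in OCI-LY3 it found 0, which allows a share of up to 0.154% by the limit of 3 counts and 0.1965% by the Wilson interval. The query came from the members, and the group was noticed in these data, so no test was made. Reads that aligned to several places had been removed, so copies too alike to tell apart may be missing.

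The third group held 33 members, and its best-linked window found 0.953% of members, 1.10% of regions closed in both lines, 0.359% of regions opened in OCI-LY3 and 0.643% of those closed in VAL only. The Alu-like best-linked window of the first group found 9.48% of members, 8.13% of regions closed in both lines and 15.4% of regions opened in OCI-LY3. It found 5.51% of regions closed in VAL only and 7.79% of all listed regions.

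**Figure D4:**
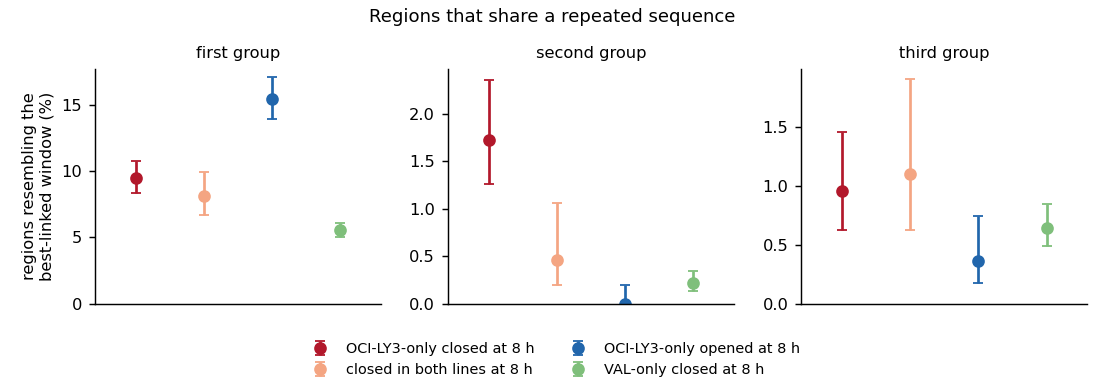
Share of regions (vertical axis, percent, with 95% Wilson intervals) that resemble the best-linked window of each of the 3 largest sequence groups, for the 4 sets. For the second group, rich in CCAAT boxes, the share is 1.72% in OCI-LY3-only closed regions and 0.457%, 0% and 0.214% in the others.

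Members were unevenly spread over chromosomes, from 1.22 per Mb on chromosomes 12 and 13 to 0.0677 per Mb on chromosome 19, with 0.724 per Mb on the autosomes and X together. Chromosome 19 held 4 members, 3 regions closed in both lines and 5 closed in VAL only, and 109 regions opened in OCI-LY3. The densest stretch of 10 Mb was the first of chromosome 12, with 41 members between positions 211212 and 8646694, against a median of 6 over 316 such stretches. Of 181 listed regions there, 22.7% were members, compared with 8.36% of all listed regions. Of these 41 members, 23 were closed at 3 h too, 5 were at promoters, 2 held an IRF dimer and 1 an AP-1 match. In VAL the same stretch had 117 regions opened at 8 h and 2 closed, and in OCI-LY3 15 opened and 46 closed. The stretch was chosen for its count, and copy number in the 2 lines was not measured in these data, so its part was not tested.

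**Figure D5:**
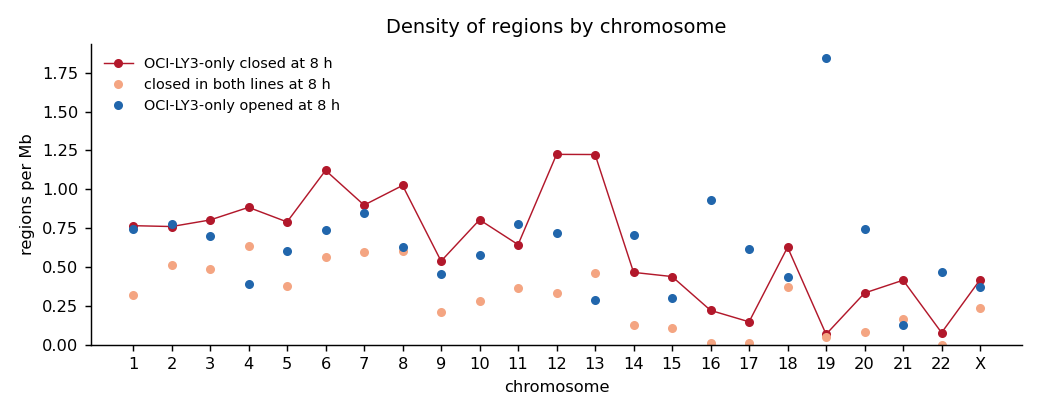
Regions per Mb (vertical axis) on each chromosome (horizontal axis) for OCI-LY3-only closed regions (red, joined), regions closed in both lines (orange) and OCI-LY3-only opened regions (blue). OCI-LY3-only closed regions reach 1.22 per Mb on chromosomes 12 and 13 and fall to 0.0677 on chromosome 19, where opened regions reach 1.84.

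Most members stood alone. With neighbours up to 50000 bp apart joined, the 2204 members formed 2001 loci, of which 1827 held 1 member, 147 held 2, 25 held 3 and 2 held 4. The share of regions that stood alone was 82.9% in members, 82.9% in regions closed in both lines, 72.2% in regions opened in OCI-LY3 and 48.2% in the larger set closed in VAL only.

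Of the loci with 3 or 4 members, 12 are described: both with 4, and the 10 of the 25 with 3 that covered the most bases. They were named by the protein-coding gene nearest to most of their members. The SDC1 locus, chr2:20365530-20443518, held 4: the promoter region and 3 intergenic regions at 58663 bp, 38128 bp and -17571 bp from the TSS to their midpoints, of which the last 2 were closed at 3 h. The locus of WNT5B, a Wnt ligand, and FBXL14, chr12:1639153-1715549, held 4, with an IRF dimer match in the region 8541 bp from WNT5B. The CCND2 locus, chr12:4216061-4258468, held 3 members between 124460 bp and 165472 bp from the TSS of the cyclin D2 gene, and all 3 were closed at 3 h. A member 57518 bp away and another 2590 bp from a CCND2 TSS were closed at 3 h as well, so all 5 members nearest to CCND2 were called at both times. At PDE4B, which encodes a cAMP phosphodiesterase, the locus chr1:66736404-66809103 held 3 intronic members, 2 with an IRF dimer match and 1 of these with AP-1 too. CD109, a surface antigen of activated T cells, had 3 intronic members, 1 with an IRF dimer. The other loci were those of SLC2A3 (the glucose transporter GLUT3), STK26 (a kinase), NINJ2 (an adhesion molecule) and CRACR2A (a calcium sensor) with PARP11. The rest were those of RGS17 (a regulator of G protein signalling), ADGRD1 (an adhesion receptor) and CELF2 (an RNA-binding protein). At the SLC2A3 locus 2 of the 3 members were at promoters, both of genes that are not protein-coding and neither of SLC2A3. Of these 12 loci, 6 were on chromosome 12, a count that rests on the order by bases among loci with 3 members. A promoter member with at least 2 distal members within 50000 bp was found at 4 places, those of SDC1, RGS17, ADGRD1 and the paired genes BEND6 and DST.

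Proximity to genes was described with 13 lists of B cell, immune and marker genes. Of 20149 protein-coding genes, 7.25% had a member within 50000 bp of a TSS. The same share was 3.95% for regions closed in both lines, 12.4% for regions opened in OCI-LY3 and 16.6% for those closed in VAL only. Over all lists, 32 of 329 genes (9.73%) had a member nearby. The counts were 16 (4.86%) for regions closed in both lines, 78 (23.7%) for regions opened in OCI-LY3 and 80 (24.3%) for those closed in VAL only. Proximity does not show that a region acts on the gene, and the lists were not tested.

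Regulators of B cell identity, the germinal centre and plasma cells had 8 of 28 genes with a member nearby: ZEB2, FOXO1, FOXP1, POU2AF1, PRDM1, TCF12, TCF4 and TOX. POU2AF1 encodes the B cell coactivator OBF1. Its member, chr11:111264771-111265245, was intronic, 475 bp wide and held an AP-1 match. FOXO1, a factor of the germinal centre dark zone, had an intergenic member at chr13:41256971-41258439 whose IRF dimer match lay in a T-rich stretch. ZEB2, a zinc finger repressor, had 2 members. The share of 28.6% stands beside 7.25% over all genes. The counts for this list were 3 for regions closed in both lines, 10 for regions opened in OCI-LY3 and 13 for those closed in VAL only.

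Among ETS and RUNX factors, 4 of 14 genes had a member nearby: ETS1, ETS2, ELF4 and GABPA, with 1 each, none holding a match to any of the 19 motifs and none closed at 3 h. The share was 28.6% beside 7.25% over all genes, and the counts were 1 for regions closed in both lines, 1 for regions opened in OCI-LY3 and 6 for those closed in VAL only. The IRF factors had 1 of 9 (11.1% beside 7.25% over all genes), with counts of 2, 3 and 4 for the other sets in that order. The gene was IRF1, where a region with its midpoint 12787 bp downstream of the TSS was closed at both times. This region lay 1305 bp from a VAL-listed region. AP-1 and MAF factors had 1 of 17 (5.88% beside 7.25% over all genes), with counts of 0, 2 and 2 in the same order. The gene here was ATF3, a stress-induced factor with 3 members. Their midpoints lay at -49825 bp from the canonical TSS, at the promoter of a non-coding gene and with an AP-1 match, and at 21466 bp and 27815 bp downstream.

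The NF-kB pathway had 6 of 40 genes: BIRC2, NFKBIE, REL, RIPK1, TNIP1 and TRAF6 (15% beside 7.25% over all genes). The counts were 1 for regions closed in both lines, 12 for regions opened in OCI-LY3 and 12 for those closed in VAL only. RIPK1, the kinase of TNF receptor signalling, had an AP-1 match in a 543 bp region 1922 bp from a TSS. The members near NFKBIE and TNIP1, both inhibitors of NF-kB, lay at the promoters of other genes, TCTE1 and GPX3. B cell receptor signalling had 2 of 36, BTK and SYK, each with an AP-1 match, a share of 5.56% beside 7.25% over all genes. The counts were 1 for regions closed in both lines, 12 for regions opened in OCI-LY3 and 9 for those closed in VAL only. BTK is the kinase downstream of SYK, and its member, chrX:100611759-100614196, was 2438 bp wide.

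In chemokines, their receptors and adhesion molecules, 4 of 34 genes had a member nearby (11.8% beside 7.25% over all genes). Counts were 2 for regions closed in both lines, 9 for regions opened in OCI-LY3 and 7 for those closed in VAL only. Among the 4 were the chemokine receptor gene CCR9 and the integrin genes ITGA4 and ITGB1. The members near CCR9 and ITGB1 lay at the promoters of other genes, LZTFL1 and ITGB1-DT. The JAK-STAT and cytokine list had 1 of 40 (2.5% beside 7.25%), with counts of 1, 7 and 8 for the other sets in the same order. This gene was IFNLR1, a subunit of the interferon lambda receptor, with STAT, BCL6 and CTCF matches in the region. The region's midpoint was 36482 bp from the IFNLR1 TSS, and its nearest protein-coding TSS, 6795 bp away, was that of IL22RA1. The TNF ligand and receptor superfamily had 1 of 29, FAS, the death receptor (3.45% beside 7.25%, counts 2, 3 and 7 in the same order). The BCL2 family had 1 of 18, HRK, a BH3-only protein with 2 members (5.56% beside 7.25%, counts 2, 6 and 4). MHC class II genes had 0 of 16 and markers of T, NK and myeloid cells 0 of 34, each with a share of 7.25% over all genes beside it. Markers of epithelial and stromal cells had 3 of 14 genes found in the annotation, COL1A2, PDGFRA and VWF (21.4% beside 7.25%), and regions opened in OCI-LY3 had 3 as well. The COL1A2 member covered its promoter. The lists hold changed regions only, so they cannot show which cell type markers were accessible before treatment.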

How the data were processed

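The data are 24 ATAC-seq libraries, 4 for each line and time. Per the methods and labels, the authors used Bowtie2 for alignment to hg19, discarded reads that were mitochondrial, duplicated or not uniquely aligned, called peaks per sample with MACS2, merged them with bedtools, counted reads and compared each time with 0 h with DESeq2 at thresholds of fold change and adjusted p. Versions for these ATAC-seq steps are not given in the sources used here. The authors deposited 8 lists of region coordinates in bp, without values, and no column of per-sample values was left unused (0).

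Members and gene lists were chosen with earlier results of these data known. TSSs came from basic transcripts of GENCODE 44 on GRCh37 (the same build). Named genes were those of the 12 loci with most members, list genes within 50000 bp, promoter genes with at least 2 distal members, and those stated to be picked after values were seen. Sequences were to be shown for motifs passing against regions closed in both lines; as none passed, IRF dimer and AP-1 were used. Fisher's exact tests (scipy 1.17.1), Mantel-Haenszel strata (statsmodels 0.14.6) and blastn 2.17.0 (E-value 1e-10) were applied. Odds ratios had 0.5 added to each cell, with Wald intervals. Intervals cover counting error only. Motif tests were tested on simulated data. A few items of the gene lists and sequence groups are not reported here.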

Additional observations from a re-analysis of the deposited data

How the results depend on the processing

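No paired analysis was possible because the deposited lists hold no values per library, and for the same reason no library could be left out. The lists also hold no fold change or p-value per region, so no stricter threshold was applied to them. The number of OCI-LY3-only closed regions stayed within 1.5 times under each of the 5 alternative definitions. The promoter share of members followed the definition of a promoter, at 11.9% within 500 bp, 18.3% within 2500 bp, 17.6% with the TSSs of all transcripts and 7.49% with protein-coding TSSs. The comparison of this share with each of the 3 other sets kept its direction and its side of the threshold under the 5 alternatives.

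The 10 motif differences became 16 with whole regions, which hold more letters in the wider sets, and 6 with GC strata. Whole regions gave 4 differences against regions closed in both lines, where the main windows gave 0 (2 with an unadjusted p below the threshold). These 4 were the E-box of E2A, the ETS-IRF composite, RUNX and the spaced AP-1-IRF composite, and whole regions also added NF-kB, OCT and RUNX against regions closed in VAL only, where AP-1 no longer passed. Against regions opened in OCI-LY3 the count fell from 5 to 3 with windows of 100 bp and to 3 with GC strata, and against regions closed in VAL only from 5 to 3 with GC strata. The higher IRF dimer shares passed in each of the 6 alternatives, with smaller odds ratios in whole regions (2.09 and 1.22). Against regions closed in both lines, where neither passed, the odds ratio of the IRF dimer turned to 1.01 with GC strata, and that of AP-1 to 0.99 with 100 bp windows and 0.90 with whole regions. The cause was not tested. The 32 list genes near members became 6 within 10000 bp and 60 within 100000 bp. Depth is unknown, so regions missed in VAL for lack of reads cannot be told apart from regions without change.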

Other observations

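Heptamers of the central 200 bp of distal members were counted against windows 2000 bp to either side, without a test. ACTTCCT, which holds the ETS core, stood in 9.41% of members and 4.21% of flanking windows, and in 12.9% of regions closed in both lines. AAGTGAA, part of the IRF sequence, stood in 9.47% and 4.94%. The heptamer CCAATCA was found in 95 distal members (4.97%) and 2.01% of flanking windows. Without the 60 members of the CCAAT-rich group it was found in 3.29%. The IRF dimer share was 9.43% without that group and 9.86% in the 1389 distal members with no sequence relative in the set.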
